A study of Mus musculus with 16 samples.

Results

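The 150 transcripts described here are the most abundant predicted genes of the mouse prefrontal cortex in a single-nucleus RNA-seq study of Alzheimer mutations and alcohol. They were chosen by abundance: every row of the count tables whose symbol is Gm followed only by digits was ranked by unique molecular identifiers (UMIs, each counted as 1 captured RNA molecule) summed over all nuclei, and the top 150 of 2860 such rows were kept. The 5 symbols Gm42418, Gm26917, Gm49179, Gm7324 and Gm17167 were left out before ranking. The members held 1621118 of 216742276 UMIs, which is 0.748% of all UMIs and 55.7% of those assigned to the 2860 Gm rows, in a table of 19999 genes. Because summed UMIs chose the members, their abundance is described and not tested.

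Nuclei came from the prefrontal cortex of 16 male mice aged 22 weeks, with 4 mice in each of 4 groups and 1 library per mouse. Wild-type (WT) mice carried the strain label B6;129. 3xTg-AD mice carry human APP with the Swedish mutation and human tau with P301L as transgenes. The alcohol groups breathed ethanol vapor in repeated cycles (chronic intermittent ethanol) after injections of ethanol and pyrazole, an inhibitor of alcohol dehydrogenase. The control groups of both genotypes received pyrazole and air. As the study states, tissue was taken days after the last vapor exposure, following a water maze test of memory. The groups are called WT control, WT alcohol, 3xTg-AD and 3xTg-AD alcohol, and mice are named by their label numbers. The comparisons ask whether the predicted genes differ with genotype, with alcohol, and with the combination.

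Gm symbols are placeholder names for loci found by annotation pipelines and cDNA collections before anything was known of a function. Many are long noncoding RNAs, which are often retained in the nucleus and therefore well sampled by nuclear RNA. An antisense RNA is transcribed from the strand opposite to a coding gene and overlaps it, a sense-intronic RNA lies inside an intron of a coding gene on the same strand, and a lincRNA lies between coding genes. Some antisense RNAs are known to act on the gene they overlap and many others have no known effect. A retrotransposed copy of a coding mRNA can also carry a Gm symbol.

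The 16 libraries held 4955 to 9096 nuclei and 9622031 to 17544364 UMIs. UMIs per nucleus averaged 1903 ± 237 in WT control, 1867 ± 452 in WT alcohol, 1770 ± 232 in 3xTg-AD and 2112 ± 315 in 3xTg-AD alcohol (SD, n = 4 mice each). WT control mice 26 and 27 and 3xTg-AD mouse 12 stood apart: 7 genes associated with ribosomal RNA, Gm42418 first among them, took 2.07 to 3.33% of UMIs there and 0.326 to 0.623% in the other 13 mice. All 3 are control mice, so this share moves with the alcohol comparison, and Gm42418 itself was lower with alcohol (log2 fold change −1.93 ± 0.50 SE, adjusted p = 0.0494). Of 112806 cell barcodes, 1694 occurred in 2 or more libraries.

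The members took 0.742 ± 0.133% of UMIs in WT control, 0.744 ± 0.045% in WT alcohol, 0.794 ± 0.073% in 3xTg-AD and 0.735 ± 0.061% in 3xTg-AD alcohol (SD, n = 4). WT control mouse 26 had the lowest share at 0.590% and WT control mouse 28 the highest at 0.883%, so the whole range of the 16 mice lay inside 1 group.

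Abundance was uneven. The 10 most abundant members held 29.9% of the members' UMIs. Gm15594 led with 81965 UMIs, found in 36.2% of nuclei. It lies on chr6:18424684-18427885, plus strand, in GRCm38 (mm10) coordinates of the GENCODE M21 annotation that are used throughout, antisense to Cttnbp2, which codes for a cortactin-binding protein of dendritic spines. Gm47283 followed with 71902 UMIs from chrY:90784738-90816464, plus strand, a predicted protein-coding locus of the Y chromosome. Gm26871 (50756 UMIs) is a processed transcript near Dpyd, a gene of pyrimidine breakdown. Gm16105 (45920) is antisense to Celf5 and Gm10115 (38969) is sense-intronic in Celf2, both genes for RNA-binding proteins. Gm3764 (43406) and Gm27032 (41020) are lincRNAs. Gm26724 (39648) is antisense to Lemd2, a gene for an inner nuclear membrane protein, and Gm47423 (35500) is antisense to Ntrk2, which encodes the BDNF receptor. Gm45159 (35332) lies inside Dlg2 on the same strand, the gene of a postsynaptic scaffold protein.

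**Figure D1:**
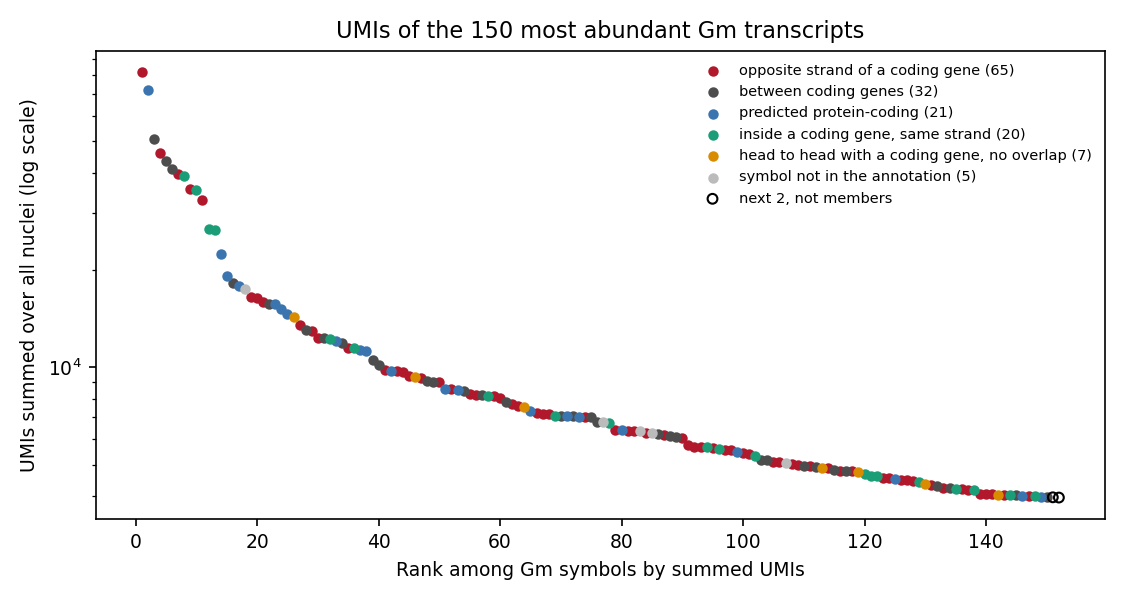
UMIs summed over all nuclei (log scale) against rank for the 150 members, coloured by the position of the locus relative to coding genes in GENCODE M21, with the next 2 Gm rows as open circles. Counts fall from 81965 at rank 1 to 3970 at rank 150, and the open circles continue the curve without a step.

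The border of the list was not a natural break. Gm13889 (3985 UMIs) and Gm9866 (3970) were the last inside, and Gm16347 (3963) and Gm33533 (3956) the first outside.

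By position, overlap with a coding gene on the opposite strand was the most frequent kind. The annotation matched 145 of the 150 symbols. Outside those annotated as protein-coding, 65 overlapped a coding gene on the opposite strand, 20 lay inside a coding gene on the same strand, 7 started within 2000 bases of the start of a coding gene on the other strand without overlapping it, and 32 lay between coding genes. The other 21 were annotated as protein-coding. The span from first to last base ranged from 384 to 160884 bases with a median of 6153. Chromosome 7 held 18 members, the most of any chromosome. The symbols Gm50232, Gm9993, Gm50240, Gm41764 and Gm49915 were not matched.

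A few members shared much of their sequence with other genes, and reads from the shared sequence cannot be assigned to 1 copy with certainty. Of the stretches of 31 bases in each member's annotated transcripts, a median of 0.82% occurred in a transcript of another gene. At least 50% did so in 7 of the 145 members. Gm8797 shared 93% with Gm1821, which GENCODE lists as a transcribed processed pseudogene, and Gm10076 shared 82.2% with Rpl41, a gene of the large ribosomal subunit. Gm12027 shared 70.2% with Gm43670, another predicted gene. Values of these members are therefore uncertain as measures of their own loci. Gm47283 of the Y chromosome shared 46.8% with Gm21887.

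The following window shows how close Gm8797 is to ubiquitin. It is the stretch of 60 bases in the annotated reading frame of Gm8797, plus strand, at chr3:5750913-5750972, that had the most differences from ubiquitin B (Ubb) among 58 windows, the first of any that tied. The best ungapped match in GENCODE transcripts of Gm1821 and Ubb is printed with the bases that differ from Gm8797 in capitals.
Gm8797: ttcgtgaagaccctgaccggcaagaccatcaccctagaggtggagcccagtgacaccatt
Gm1821: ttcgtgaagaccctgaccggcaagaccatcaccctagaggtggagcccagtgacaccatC
Ubb: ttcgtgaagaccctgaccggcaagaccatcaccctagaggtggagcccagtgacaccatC
Even in this window both genes differed from Gm8797 at only 1 base, and in other windows of the frame the match to Ubb was complete.

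Nuclei were placed in 7 classes by marker UMIs (at least 3 UMIs of a class's markers and at least 2 times those of every other class), which left 65160 of 114512 nuclei (56.9%) in no class. The classes held 30953 nuclei with glutamatergic neuron markers, 3856 with GABAergic neuron markers, 8468 with astrocyte markers, 3206 with oligodendrocyte markers, 828 with markers of oligodendrocyte precursors (OPC), 1606 with microglia markers and 435 with vascular markers. Median UMIs per nucleus were 2685 in the glutamatergic class and 816 in the microglia class. Of 62 markers, 59 were highest in their own class, a count that includes the markers used to place the nuclei. The exceptions were all markers not used for placing. Camk2a, a neuronal kinase gene, reached 1734 CPM (UMIs scaled to a common library total) in the astrocyte class against 737 in the glutamatergic class. Tbr1, a glutamatergic marker, stood at 74.1 CPM in the microglia class against 61.7 in its own. Slc6a13, a vascular marker, stood at 22.0 CPM in the astrocyte class against 8.89 in its own. Of the glutamatergic markers not used for placing, only Neurod2 was highest in its own class (129 CPM against 71.0 in oligodendrocytes). Slc17a7, the vesicular glutamate transporter gene, stood at 379 CPM in the oligodendrocyte class against 969 in the glutamatergic class. The source of these UMIs in glial classes and their part in the values by class were not tested.

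Many members were unevenly spread over the classes. A member was called higher in a class when edgeR's quasi-likelihood test, with the mouse as a factor, gave an adjusted p of at most 0.05 and a log2 difference from the mean of the other 6 classes of at least 1. Of the 150 members, 72 passed the filter on low counts in this fit, 56 were called in at least 1 class and 16 in none. A member could pass this filter through the class where it is high, so the share called is partly set by the filter. Gm6145, at rank 104 by UMIs, was tested, and Gm41505, at rank 45, was not. The glutamatergic class had 38 called members, against 8.99% of all 7009 genes tested, and the GABAergic class had 25, against 8.05%. Both neuronal classes were called for 22 members. The share of all genes called in both, or in at least 1 class, was not counted, so neither the 22 nor the 56 has a background. The astrocyte class had 10 (background 6.78%), the OPC class 17 (6.41%), microglia 6 (5.76%), vascular nuclei 4 (8.79%) and oligodendrocytes 3 (4.72%). Glutamatergic nuclei supplied the most UMIs, so choosing members by summed UMIs favours genes of that class, and the counts are a description.

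Gm6145 had the steepest class pattern. It is a processed transcript at chr14:105621015-105643725, minus strand, between coding genes, with Spry2 as the nearest. Its level was 327 ± 72.3 CPM in astrocyte nuclei and 6.44 ± 1.49 CPM in glutamatergic nuclei (SD, n = 16 mice), and the log2 difference from the other classes was 5.71 ± 0.09 (SE, adjusted p = 1.52e-152). No other class averaged above 10.9 CPM. Gm9925, opposite Mapk4, reached 143 ± 48.7 CPM in astrocytes and 53.4 ± 16.4 CPM in glutamatergic nuclei. Gm3764 had the highest level of any member in 1 class at 994 ± 205 CPM in astrocytes, followed by 551 ± 114 CPM in OPC nuclei, and 36.8 ± 29.4 CPM in microglia.

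Among the neuronal members, Gm10115 inside Celf2 stood at 335 ± 51.4 CPM in glutamatergic and 26.8 ± 20.3 CPM in GABAergic nuclei, a log2 difference for the glutamatergic class of 3.31 ± 0.09 (adjusted p = 5.89e-53). Gm26871 showed the same order, with 416 ± 96.6 and 79.3 ± 29.7 CPM. Gm12027 reached 114 ± 25.5 CPM in glutamatergic nuclei. Gm13629, which lies antisense to the sodium channel gene Scn9a, was the leading GABAergic member with 103 ± 30.1 CPM against 21.8 ± 6.47 CPM in glutamatergic nuclei and at most 8.23 CPM on average in the other 5 classes (log2 difference 3.77 ± 0.13, adjusted p = 1.8e-77). Gm19938, sense-intronic in Xkr4, stood at 240 ± 61.0 CPM in GABAergic and 174 ± 36.7 CPM in glutamatergic nuclei.

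Some members were called in glial classes. Gm28320, sense-intronic in Tmeff2, reached 132 ± 42.3 CPM in oligodendrocytes, and it was also called in glutamatergic (44.4 ± 10.8 CPM) and GABAergic nuclei (35.5 ± 12.04 CPM). Gm4258 stood at 264 ± 93.8 CPM in oligodendrocytes and 183 ± 86.9 CPM in OPC nuclei. Gm38039, antisense to Tnr, the gene of the matrix protein tenascin-R, reached 116 ± 65.2 CPM in OPC nuclei against 28.8 ± 10.7 CPM in glutamatergic nuclei. Tnr was itself a checked OPC marker, at 714 CPM in that class and 127 CPM in the next. Gm47591 inside Anks1b was shared by OPC (268 ± 67.1 CPM) and glutamatergic nuclei (206 ± 30.2 CPM), and Gm28307 was called in OPC (69.5 ± 33.9 CPM), GABAergic (61.4 ± 24.1 CPM) and glutamatergic nuclei (41.9 ± 15.9 CPM).

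In microglia Gm43221, opposite Fam102b, reached 183 ± 91.0 CPM, a log2 difference of 3.92 ± 0.18 (adjusted p = 6.13e-46), and Gm47664, inside the engulfment gene Elmo1, 109 ± 37.2 CPM. Gm26532 was called in microglia (42.9 ± 19.1 CPM), vascular nuclei (48.6 ± 34.5 CPM) and astrocytes (48.9 ± 11.98 CPM). The vascular class also had Gm29237 (103 ± 63.8 CPM), which was no lower in glutamatergic nuclei (114 ± 31.7 CPM), and Gm12758 (49.3 ± 37.3 CPM). The SDs in this class of few nuclei were wide.

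**Figure D2:**
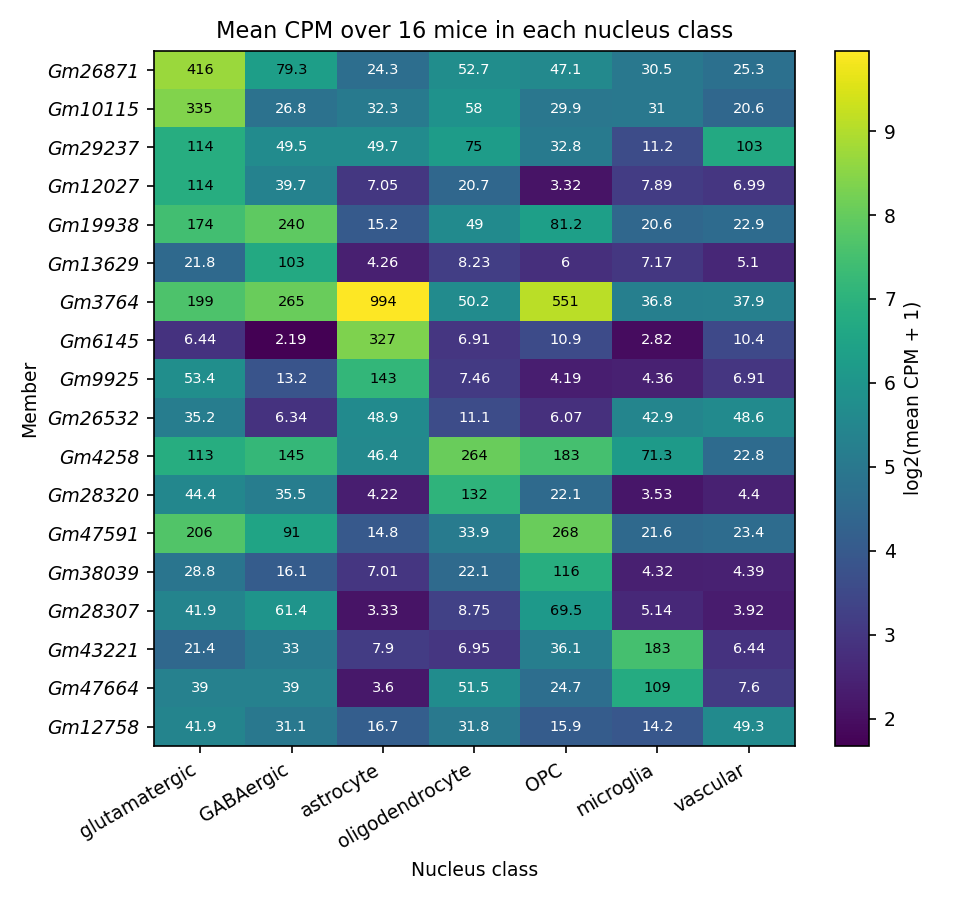
Mean CPM over 16 mice (numbers; colour is log2 of mean CPM + 1) of the members called most strongly in each of 7 nucleus classes. Gm6145 is bright in astrocytes alone at 327 CPM, Gm13629 in GABAergic nuclei at 103 CPM and Gm43221 in microglia at 183 CPM, whereas Gm3764 and Gm47591 are high in more than 1 class.

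RefSeq start sites were at hand for 40 of the 150 members, as windows of 300 bases that run from 250 before to 50 after a start (GRCm38.p6). The letters CCAAT, read on either strand as CCAAT or ATTGG, occurred in 50% of the 52 member windows and in 37.4% of all 32851 windows. GGGCGG occurred on either strand in 36.5% and 35.7%, and TATAAA in 5.77% and 13.6%. The last letters of ATTGG can also begin GGGCGG, so the motifs are not independent. The windows of 3 members are shown because their RefSeq start lay within 10 bases of the GENCODE start and because each belongs to a result described here: Gm5441 was lower with alcohol, Gm1976 was lower in 3xTg-AD mice and Gm13629 marked GABAergic nuclei. Capitals mark the CCAAT or ATTGG letters.
Gm5441, chr12:117336963-117337262, minus strand: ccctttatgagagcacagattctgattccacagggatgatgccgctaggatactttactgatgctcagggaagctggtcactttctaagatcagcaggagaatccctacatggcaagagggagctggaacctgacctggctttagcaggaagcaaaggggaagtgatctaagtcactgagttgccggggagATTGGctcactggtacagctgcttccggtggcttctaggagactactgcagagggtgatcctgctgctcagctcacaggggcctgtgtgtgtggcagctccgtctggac
Gm1976, chr17:94834750-94835049, minus strand: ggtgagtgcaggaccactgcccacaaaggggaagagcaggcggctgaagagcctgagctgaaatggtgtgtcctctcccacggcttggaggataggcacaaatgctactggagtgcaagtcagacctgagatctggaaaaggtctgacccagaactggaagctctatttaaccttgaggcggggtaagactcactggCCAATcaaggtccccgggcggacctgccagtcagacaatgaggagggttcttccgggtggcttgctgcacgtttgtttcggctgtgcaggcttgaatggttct
Gm13629, chr2:66440630-66440929, plus strand: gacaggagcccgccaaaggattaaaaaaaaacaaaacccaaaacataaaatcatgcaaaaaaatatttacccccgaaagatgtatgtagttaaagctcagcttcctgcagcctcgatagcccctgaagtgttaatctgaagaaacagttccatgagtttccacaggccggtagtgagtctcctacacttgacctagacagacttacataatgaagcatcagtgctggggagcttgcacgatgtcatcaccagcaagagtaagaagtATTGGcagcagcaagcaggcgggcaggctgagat
Each window held the letters 1 time. They began 59 bases before the start of Gm5441 and 53 before that of Gm1976, and after the start of Gm13629. The share of G and C was 54% in Gm5441, 56% in Gm1976 and 45.3% in Gm13629.

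Between genotypes a handful of members differed, and in the main fit more of them were lower than higher in 3xTg-AD mice. Counts were summed per mouse, and the 8 3xTg-AD mice were compared with the 8 WT mice with both exposures weighted equally (edgeR, 16767 genes tested, all 150 members among them, adjusted p of at most 0.05). Of the members, 9 were called, with 3 higher and 6 lower, which is 6%. Of all genes tested, 3.28% were called, 1.51% higher and 1.77% lower. The balance of directions moved with the processing. DESeq2 called 14 members, 7 higher and 7 lower (947 of 16767 genes), and edgeR without WT control mouse 28 called 5 higher and 5 lower (554 of 17024 genes). The median log2 fold change was −0.0029 for the members and −0.0062 for all genes. The member list was chosen for abundance and the background holds genes of all levels.

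Gm8797, the ubiquitin-like copy at chr3:5750806-5751295, plus strand, changed most. Its level was 46.7, 5.20, 92.6 and 109 CPM in WT control mice 26, 27, 28 and 36, and 9.59, 74.1, 165 and 191 CPM in WT alcohol mice 6, 7, 17 and 18. It was 6.80, 11.6, 13.2 and 11.6 CPM in 3xTg-AD mice 12, 13, 14 and 21, and 8.80, 4.63, 12.6 and 7.92 CPM in 3xTg-AD alcohol mice 4, 31, 33 and 34. WT control mouse 27 and WT alcohol mouse 6 lay in the range of the 3xTg-AD mice, and the other 6 WT mice lay at least 3 times above it. The log2 fold change was -3.13 ± 0.60 (adjusted p = 0.0125). Ubb, with the same sequence in much of its length, did not pass the test (0.10 ± 0.15, adjusted p = 0.816).

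Gm19667, antisense to the Golgi calcium pump gene Atp2c1 at chr9:105470520-105480194, plus strand, was 21, 24.9, 51.3 and 53.8 CPM in WT control, 39.0, 57.5, 40.3 and 38.8 CPM in WT alcohol, 12.4, 28.6, 21.3 and 22.7 CPM in 3xTg-AD and 12.9, 8.38, 11.3 and 10.6 CPM in 3xTg-AD alcohol mice, in the same order of mice. All WT alcohol mice lay above all 8 3xTg-AD mice, and the 2 WT control mice with high Gm42418, 26 and 27, lay near the 3xTg-AD mice. The log2 fold change over both exposures was -1.43 ± 0.20 (adjusted p = 0.0007), and within alcohol -2.02 ± 0.29 (adjusted p = 0.00182). Atp2c1 was not called (-0.23 ± 0.09, adjusted p = 0.187).

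Gm1976, a processed transcript whose nearest coding gene is Mettl4, separated the genotypes fully, which follows in part from its being called. The share of all genes with such a separation was not counted. Levels were 33.5 to 44.0 CPM in the 8 WT mice and 19.0 to 31.6 CPM in the 8 3xTg-AD mice. The log2 fold change of Gm1976 was -0.61 ± 0.09 (adjusted p = 0.00104). It was the 1 member called between the control groups alone, where 0.435% of all genes were called (WT control 41.0, 41.2, 37.6 and 33.6 CPM, 3xTg-AD 29.9, 21.9, 19.0 and 22.5 CPM, log2 fold change -0.71 ± 0.13, adjusted p = 0.0179). That call was lost without WT control mouse 26 or 27 or 3xTg-AD mouse 13, 14 or 21.

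The lincRNA Gm2824 was 35.9 to 70.4 with a median of 41.3 CPM in WT and 19.5 to 38.7 with a median of 28.9 CPM in 3xTg-AD mice (log2 fold change -0.65 ± 0.14, adjusted p = 0.0137). Gm9866, the last member by abundance, fell from 16.6 to 32.4 with a median of 21.1 CPM to 10.2 to 17.6 with a median of 14.6 CPM (-0.64 ± 0.13, adjusted p = 0.00823). Its nearest coding gene is Sox11, a transcription factor of young neurons, which was not called (0.07 ± 0.08). The WT and 3xTg-AD ranges of both members overlapped. Gm15614, which overlaps 2 coding genes on the other strand, was 19.9 to 34.6 CPM in WT and 15.3 to 25.2 CPM in 3xTg-AD mice (-0.43 ± 0.12, adjusted p = 0.0492), and leaving out any of 12 mice ended that call.

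Higher in 3xTg-AD mice were Gm48960, Gm26672 and Gm30382. Gm48960, antisense to the vesicle-transport gene Vps13b, was 20.3, 19.1, 19.6 and 21.9 CPM in WT control, 21.04, 33.7, 28.8 and 17.3 CPM in WT alcohol, 28.2, 30.8, 28.6 and 33.9 CPM in 3xTg-AD and 41.8, 38.3, 35.1 and 50.3 CPM in 3xTg-AD alcohol mice (0.65 ± 0.12, adjusted p = 0.00377). Vps13b was not called (-0.04 ± 0.12). The 3xTg-AD alcohol mice were the highest of all 16. Gm30382, a lincRNA with Adgrl2 as the nearest coding gene, was 23.6 to 33.5 with a median of 26.4 CPM in WT and 26.1 to 45.3 with a median of 39.1 CPM in 3xTg-AD mice (0.47 ± 0.08, adjusted p = 0.00235). Gm26672 lies on the minus strand of chromosome 18 across the gamma protocadherin cluster, where 21 coding genes overlap it, and these encode adhesion proteins that differ from neuron to neuron. It was 47.2, 59.9, 73.5 and 54.6 CPM in WT control, 52.2, 52.5, 34.9 and 30.9 CPM in WT alcohol, 74.6, 120, 91.6 and 106 CPM in 3xTg-AD and 68.1, 56.3, 50.1 and 53.8 CPM in 3xTg-AD alcohol mice (0.58 ± 0.13, adjusted p = 0.0171). The 3xTg-AD mice lay above all WT control mice, and the 3xTg-AD alcohol mice overlapped both WT groups.

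**Figure D3:**
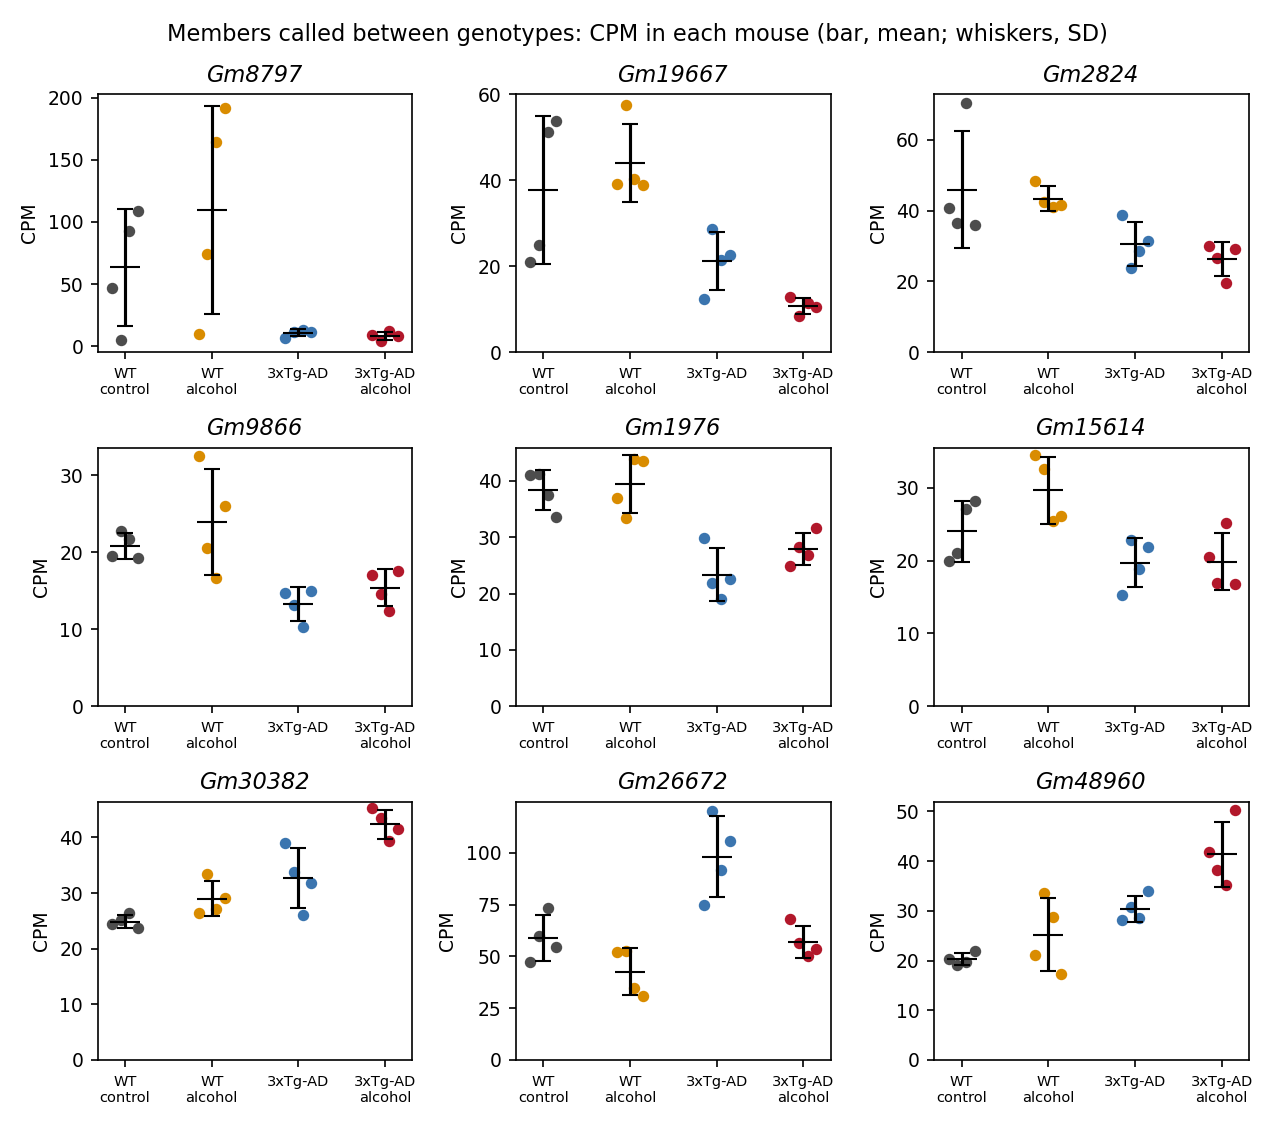
CPM of the 9 members called between genotypes in each mouse (points; bar, group mean; whiskers, SD; 4 mice a group). Gm8797 and Gm19667 show the largest drop in 3xTg-AD mice with wide spread among WT mice. Gm1976 shows 8 WT mice between 33.5 and 44.0 CPM above all 3xTg-AD mice. That the genotypes differ follows from the members being called.

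Within alcohol-exposed mice, 3 members were called between genotypes, against 0.942% of all genes: Gm19667, Gm48960 (0.72 ± 0.16, adjusted p = 0.0385) and Gm30382 (0.55 ± 0.11, adjusted p = 0.0219). For all 3 the WT alcohol and 3xTg-AD alcohol mice did not overlap, which follows in part from the members being called. The share of all genes without overlap was not counted. The call of Gm19667 stood under all 22 alternatives, whereas that of Gm48960 was lost when any of 7 single mice was left out and that of Gm30382 when any of 6 was.

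With alcohol, 13 of the 65 members that overlap a coding gene on the opposite strand fell. Over both genotypes 21 members (14%) were called between the 8 alcohol and 8 control mice, 4 higher and 17 lower, against 3.3% of all genes, 0.996% higher and 2.3% lower. The median log2 fold change was −0.07 for the members and 0.01 for all genes. Of the 17 lower members, 13 overlap a coding gene on the opposite strand. These 13 are 20% of the 65 members in that position, whose median was −0.25. Of the 32 members between coding genes, 6 (18.8%) were called, 4 higher and 2 lower, and of the 5 unmatched members 1 was lower. None of the 20 members inside a coding gene on the same strand was called by edgeR or DESeq2 (3 at an unadjusted p under 0.05, median −0.04), nor any of the 7 head-to-head members (2 at an unadjusted p under 0.05), but with 3.3% of all genes called, 0 of so few is near the background, and the difference between positions was not tested. Gm10097, annotated as protein-coding, also overlaps its partner on the opposite strand. Position was not used to choose the members, but the split by position was made with the calls known.

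Gm15577 and Gm13187 fell most, by a factor of about 1.93 each. Gm15577 is antisense to Negr1, which encodes a neuronal growth regulator of the cell surface, at chr3:156903863-156920780, minus strand. It was 27.6, 23.0, 32.7 and 29.4 CPM in WT control, 24.4, 32.6, 24.3 and 30.2 CPM in 3xTg-AD, 24.7, 23.9, 12.5 and 13.4 CPM in WT alcohol and 11.1, 11.3, 12.3 and 11.1 CPM in 3xTg-AD alcohol mice (-0.95 ± 0.14, adjusted p = 0.00305). Gm13187 is antisense to Frmd4a, a cell-polarity gene, at chr2:4287595-4301167, minus strand. It was 21.6, 21.1, 30.8 and 26.6 CPM in WT control, 22.6, 33.8, 23.9 and 33.99 CPM in 3xTg-AD, 21.4, 22.5, 12.4 and 12.3 CPM in WT alcohol and 10.5, 11.8, 10.6 and 12.5 CPM in 3xTg-AD alcohol mice (-0.95 ± 0.14, adjusted p = 0.0039). In both, the 4 3xTg-AD alcohol mice and WT alcohol mice 17 and 18 lay below all 8 control mice, and WT alcohol mice 6 and 7 lay among the controls.

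The same order of mice recurred. The 17 lower members were picked in this comparison of the same mice, so low counts and sums in most alcohol mice follow from the choice. WT alcohol mouse 18 was below all 8 controls in 17 of the 17 lower members and mouse 17 in 15, the 3xTg-AD alcohol mice in 13 to 15, but mouse 6 in 2 and mouse 7 in 1. Summed over the 17 members, mice 6 and 7 stood at 544 and 564 CPM and mice 17 and 18 at 343 and 349 CPM, while the control mice ranged from 544 to 834 and the 3xTg-AD alcohol mice from 344 to 419 CPM. Within the WT alcohol label the mice thus fell on both sides, and the labels give no property that separates them. Mice 6 and 7 resembled the controls in these members but not in every member: Gm12027, named here after its values were seen, was 92.6 and 93.4 CPM in them and at most 85.6 CPM in the controls. Blood alcohol levels that the study recorded were not used here, and every alcohol value rests on the labels as given. UMIs per nucleus were 1588 and 1486 in mice 6 and 7 and 2491 and 1904 in mice 17 and 18, 1847 to 2507 in 3xTg-AD alcohol mice and 1562 to 2114 in the controls. The part of depth in this difference was not tested.

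Gm5493, a lincRNA at chr17:22739945-22751509, plus strand, was the 1 lower member whose ranges did not overlap. It was 21.02 to 35.5 with a median of 23.7 CPM in control and 8.17 to 19.0 with a median of 15.04 CPM in alcohol mice (-0.92 ± 0.14, adjusted p = 0.0039). Absence of overlap follows in part from the member being called, and the share of all genes without overlap was not counted. Gm5441, whose window is printed above, lies antisense to Ptprn2, a gene of secretory vesicles. It was 41.3, 38.6, 61.7 and 49.2 CPM in WT control, 38.0, 56.1, 40.3 and 47.9 CPM in 3xTg-AD, 44.7, 44.4, 16.2 and 25.6 CPM in WT alcohol and 21.7, 19.6, 20.9 and 20.7 CPM in 3xTg-AD alcohol mice (-0.84 ± 0.17, adjusted p = 0.0175). Gm15601, antisense to the phospholipase gene Ddhd1, was 19.4 to 34.6 with a median of 23.2 CPM in control and 11.6 to 22.2 with a median of 12.7 CPM in alcohol mice (-0.82 ± 0.15, adjusted p = 0.0117). Gm28307, a lincRNA near Vstm2b, fell from 24.6 to 52.5 with a median of 36.6 CPM to 16.1 to 38.3 with a median of 18.9 CPM (-0.79 ± 0.14, adjusted p = 0.0117).

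Gm10097 lies opposite Syne1, which encodes a giant protein of the nuclear envelope, Gm43376 opposite Nbea, a gene of membrane traffic at synapses, and Gm48239 opposite Cadps, a gene of vesicle priming. Their log2 fold changes were -0.75 ± 0.17, -0.72 ± 0.19 and -0.69 ± 0.18 (adjusted p = 0.0244, 0.0482 and 0.0485). Median levels in control and alcohol mice were 56.0 and 30.6 CPM for Gm10097, 35.1 and 19.4 for Gm43376, and 28.8 and 17.2 for Gm48239, with overlapping ranges. These 3 calls were lost when any of 6 or more single mice was left out.

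The other 8 lower members fell by log2 values between -0.57 and -0.65. They were Gm26879 opposite Rcor3, Gm45406 opposite Arhgap10, Gm48420 opposite Pde8b, a phosphodiesterase gene, Gm16982 opposite Ap2a2, an adaptor gene of endocytosis, the unmatched Gm49915, and 3 transcripts of the protocadherin clusters, Gm10544, Gm26672 and Gm29994. The cluster transcripts overlap 17, 21 and 24 coding genes. Gm26672 was called in both comparisons in opposite directions, higher in 3xTg-AD mice and lower with alcohol.

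All 4 higher members lie between coding genes. Gm10076, the Rpl41-like copy at chr14:105681828-105682211, plus strand, was 66.5, 61.5, 28.5 and 21.3 CPM in WT control, 45.3, 32.4, 30.8 and 26.6 CPM in 3xTg-AD, 88.2, 65.8, 61.0 and 70.3 CPM in WT alcohol and 91.0, 56.8, 92.9 and 39.7 CPM in 3xTg-AD alcohol mice (0.87 ± 0.23, adjusted p = 0.0498). The WT control mice with high Gm42418 had its highest control values, and the call was lost under 15 of 22 alternatives. Rpl41 itself stood at a log2 fold change of 0.07 ± 0.10 (adjusted p = 0.74). Gm14636, Gm26532 and Gm30382 rose by 0.51 ± 0.13, 0.37 ± 0.10 and 0.30 ± 0.08 on the log2 scale (adjusted p = 0.0449, 0.0494 and 0.0478). No member was called higher by edgeR when WT control mouse 36, WT alcohol mouse 7, 17 or 18, 3xTg-AD mouse 13, 14 or 21, or 3xTg-AD alcohol mouse 33 was left out, so each of these 8 omissions ended all 4 calls. The genotype call of Gm30382 stood under all 22 alternatives and its alcohol call did not, and its level reached 45.3, 43.5, 39.3 and 41.5 CPM in 3xTg-AD alcohol mice against 24.4, 25.1, 26.3 and 23.6 CPM in WT control.

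**Figure D4:**
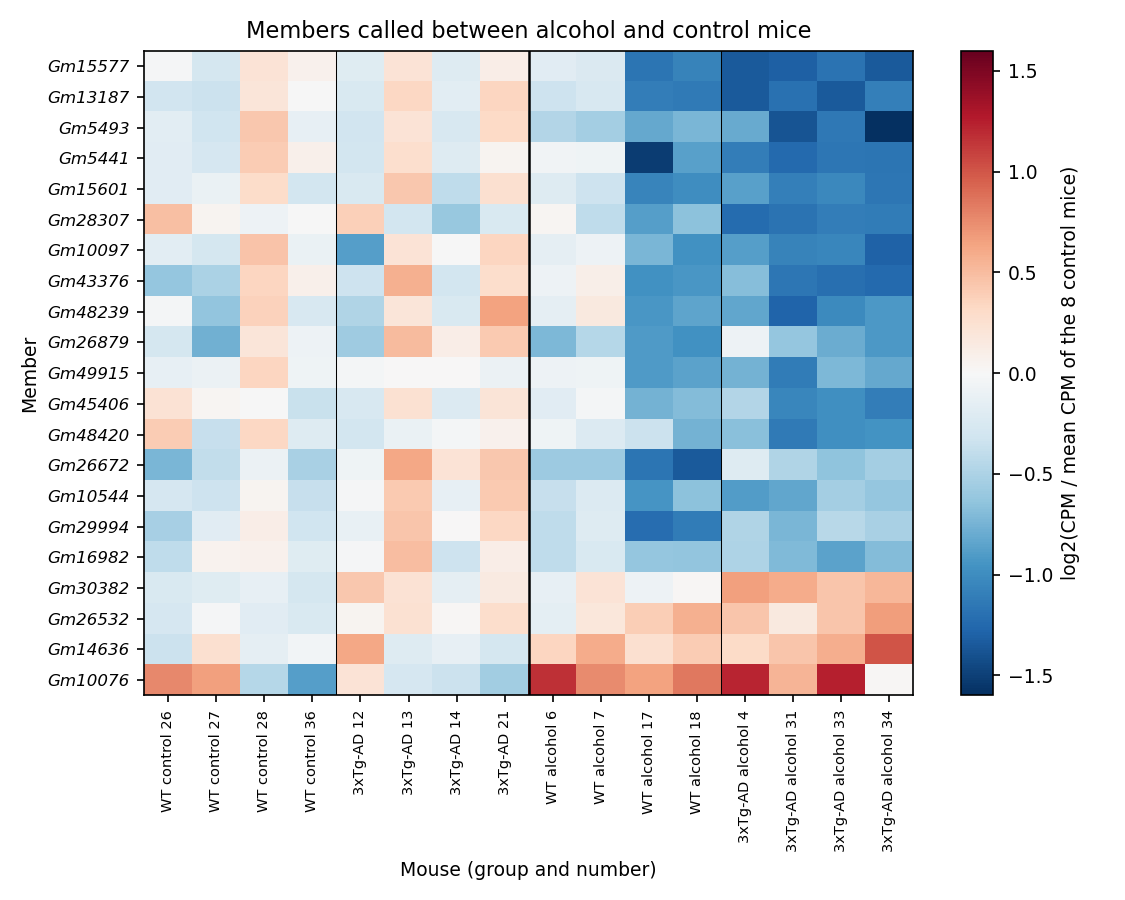
Level of the 21 members called with alcohol in each mouse as log2 of CPM over the mean of the 8 control mice (blue, lower; red, higher). The blue block covers the 3xTg-AD alcohol mice and WT alcohol mice 17 and 18, while WT alcohol mice 6 and 7 resemble the controls in most rows. That most alcohol mice differ from the controls follows from the members being called.

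A partner was the tested coding gene with the longest overlap, taken from the opposite strand first (from the same strand first for members annotated as protein-coding), or else the gene starting head to head or the nearest one. For 19 of the 21 members called with alcohol the partner was tested, and these 18 distinct partners had 0 calls by edgeR, 3 at an unadjusted p under 0.05 and 1 call by DESeq2. With 3.3% of all genes called, so few partners would be called seldom in any case, and the 0 is a description. Negr1 stood at -0.11 ± 0.08, Frmd4a at 0.07 ± 0.08, Ptprn2 at -0.14 ± 0.11, Nbea at -0.06 ± 0.09 and Cadps at -0.09 ± 0.09 (log2 fold change ± SE, adjusted p = 0.497, 0.674, 0.497, 0.716 and 0.597). Values further below 0 were measured for the protocadherin partners, which were not called, at -0.50 ± 0.31 for Pcdhga1 (partner of Gm26672 and Gm29994, adjusted p = 0.366) and -0.40 ± 0.18 for Pcdha1 (partner of Gm10544, adjusted p = 0.223), close to those of their members and at mean levels of only 1.05 and 1.72 CPM. Syne1 was the nearest to a call at -0.28 ± 0.09 (adjusted p = 0.0836). Over the 63 opposite-strand members with a tested partner, the median was −0.25 for the members and −0.04 for the 61 distinct partners, of which 2 were called. Whether a member and its partner differed in response was not tested. The strand setting of the counting was not given, and without strand the reads of a member and of the gene opposite cannot be told apart. For the 9 members called between genotypes, the 9 partners likewise had 0 calls by edgeR or DESeq2 and 1 at an unadjusted p under 0.05.

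**Figure D5:**
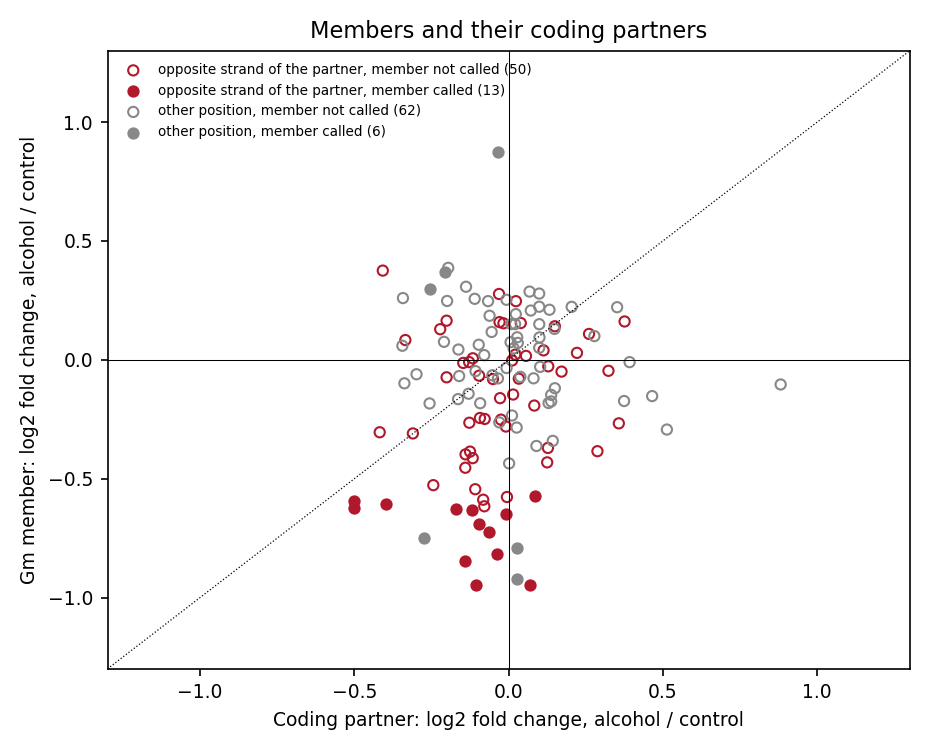
Log2 fold change with alcohol of each member (vertical) and of its coding partner (horizontal), for 131 members with a tested partner; red, member on the opposite strand of the partner; filled, member called. The filled red points lie between −0.57 and −0.95 on the vertical axis, which follows from their being called, and their partners, which were not selected, between −0.50 and 0.09 on the horizontal. The dotted line marks equal change.

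Antisense genes outside the 150 members were also called lower with alcohol. Among the other genes of GENCODE biotype antisense, 9.43% of 965 were called lower with alcohol and 1.14% higher, with a median of −0.19, whereas 2.24% of 669 lincRNAs were called lower. Of the 1532 other Gm rows tested, 5.16% were called lower and 0.914% higher, and of 929 RIKEN clone symbols 2.48% and 1.29%. Of 14185 other protein-coding genes, 1.76% were called lower. Between genotypes the antisense share called lower was 2.49%, near the 1.77% of all genes.

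In 3xTg-AD mice alone, 11 members were lower with alcohol and none higher, against 0.483% of all genes called and 0.423% called lower (DESeq2 called 24 members, 0 of them higher, and 395 of 16767 genes, and 47 members had an unadjusted p under 0.05 by edgeR in either direction). The 11 were Gm13187 (-1.33 ± 0.20, adjusted p = 0.0112), Gm15577 (-1.28 ± 0.20, 0.0112), Gm5493, Gm5441, Gm15601, Gm28307, Gm10544, Gm45406, Gm48420, Gm49915 and Gm16982. For each the 4 alcohol mice lay below the 4 controls, which follows in part from the members being called. The share of all genes with such a separation was not counted. With 3xTg-AD mouse 13 or 21, or 3xTg-AD alcohol mouse 31, 33 or 34 left out, edgeR called no member and no other gene. Without 3xTg-AD mouse 12, which had high Gm42418, 24 members were called, 3 of them higher, and 244 of 17029 genes. The share of nuclei in the astrocyte class was 5.68 to 7.59% in 3xTg-AD and 8.49 to 9.79% in 3xTg-AD alcohol mice, without overlap, and the microglia share was 0.795 to 1.52% and 1.37 to 3.35%, with overlap. Their part in the 11 calls was not tested. In WT mice alone, 0 members passed by edgeR or by DESeq2, with 28 at an unadjusted p under 0.05, against 0.0179% of all genes by edgeR. The same members stood at -0.56 ± 0.20 for Gm13187 and -0.61 ± 0.19 for Gm15577 there.

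The difference between these alcohol effects was tested as an interaction of genotype and alcohol. No member and none of the 16767 genes passed by edgeR (0%), 19 members had an unadjusted p under 0.05, and DESeq2 called 1 gene and 0 members. The smallest interaction p among the members belonged to Gm50240 and Gm19667, with log2 interactions of 0.64 ± 0.21 and -1.19 ± 0.40 (adjusted p = 0.944 and 0.944). Gm50240 was 39.0, 34.2, 28.1 and 33.6 CPM in WT control, 26.9, 25.3, 24.4 and 31.6 CPM in WT alcohol, 27.6, 20.3, 23.8 and 28.7 CPM in 3xTg-AD and 22.9, 30.5, 36.2 and 35.8 CPM in 3xTg-AD alcohol mice, with overlap between all groups.

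Mice with both factors were compared with mice with neither. Between 3xTg-AD alcohol and WT control mice 21 members were called, 5 higher and 16 lower, against 4.06% of all genes, 1.56% higher and 2.5% lower. The comparison shares its mice with those above. Gm19667 (-1.81 ± 0.29), Gm15577 (-1.30 ± 0.20), Gm28307 (-1.29 ± 0.20), Gm5441 (-1.20 ± 0.24), Gm5493 (-1.19 ± 0.20), Gm13187 (-1.14 ± 0.20), Gm10097 (-1.07 ± 0.24) and Gm48420 (-1.01 ± 0.18) were lower, and Gm48960 (1.03 ± 0.16) was higher. Gm38039, the Tnr antisense transcript of OPC nuclei, was called here and in no other comparison (19.5, 16.9, 42.6 and 38.1 CPM in WT control, 14.6, 13.4, 17.5 and 14.2 CPM in 3xTg-AD alcohol, -0.98 ± 0.26, adjusted p = 0.0442), with overlapping ranges. This call was lost under 13 of 22 alternatives, 11 of them the omission of a single mouse, and the log2 fold change ranged from −1.43 to −0.75. The share of nuclei placed in the OPC class was 0.744, 0.806, 0.516 and 0.402% in WT control and 0.738, 1.0, 0.748 and 1.41% in 3xTg-AD alcohol mice. The astrocyte share was 5.69 to 7.43% in WT control and 8.49 to 9.79% in 3xTg-AD alcohol mice, and the microglia share 0.444 to 1.3% and 1.37 to 3.35%, without overlap in either class. The part of these shares in the sums over all nuclei was not tested, and in such sums alone fewer nuclei of a class and less RNA per nucleus cannot be told apart.

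Within nucleus classes, the members called with alcohol over all nuclei were compared by sign. The sign was the same in 21 of 21 tested in glutamatergic, 17 of 17 in GABAergic and 13 of 13 in astrocyte nuclei. These nuclei are parts of the same libraries. The members were called in sums that hold them, so agreement in sign follows in part from the choice. The share of all genes with the same sign was not counted. In glutamatergic nuclei 9 members were called between genotypes (2.52% of 14583 genes) and 15 with alcohol (1.8%), 12 of them lower. Gm15577 stood at -0.91 ± 0.13 and Gm13187 at -0.99 ± 0.15 with alcohol (adjusted p = 0.00249 and 0.00507), and Gm12027 was higher (0.45 ± 0.11). In astrocyte nuclei 3 were called between genotypes (background 1.22%) and 5 with alcohol (0.413%), among them Gm13187 (-1.19 ± 0.17, adjusted p = 0.000114), Gm15601 (-0.89 ± 0.15) and Gm26672 (-0.86 ± 0.14). In GABAergic nuclei 2 were called between genotypes (0.688%), Gm19667 (-1.11 ± 0.20) and Gm15614 (-0.91 ± 0.21), and 3 with alcohol (0.266%), Gm5441, Gm43221 and Gm26672.

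As over all nuclei, Gm8797 was lower in 3xTg-AD mice in glutamatergic nuclei (-3.19 ± 0.65) and in astrocyte nuclei (-3.36 ± 0.65), and Gm26672 was higher in both (0.62 ± 0.13 and 0.90 ± 0.14). In oligodendrocyte nuclei edgeR called 0 of the 35 members tested in either comparison, with 6 at an unadjusted p under 0.05 between genotypes and 2 with alcohol, and no other tool was run there (background 0.252% and 0%). Of 150 members, 131 were tested in GABAergic and 106 in astrocyte nuclei.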

How the data were processed

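Single-nucleus RNA-seq (10x 3' v3.1) was run on 16 libraries, 1 per mouse. Per the labels, reads were processed with Cell Ranger 6.1.1 on mm10, and the authors deposited raw UMI counts per gene and nucleus. The annotation release and the treatment of intronic reads were not given in the sources used here, nor was a strand setting for the counting. Intervals of depth are given by the UMI totals of each library. Counts were summed per mouse over all deposited nuclei, or per mouse and nucleus class, and fitted with edgeR 4.0.16 in R 4.3.3 (TMM scaling, filterByExpr, robust quasi-likelihood, 1 mean per group, all 16 mice). CPM are TMM-scaled. Adjusted p-values are Benjamini-Hochberg over all genes tested, called at 0.05 or less. In the group comparisons they measure the spread between mice. In the comparison of classes, where the mouse is a factor, they measure the spread left after differences between mice. DESeq2 1.42.0, no filter on low counts, a stricter filter on nuclei, the ribosomal RNA-associated share as a covariate, omission of the 3 mice with most Gm42418, glutamatergic nuclei alone, a class rule of 2 marker UMIs and omission of each mouse were the alternatives. The fitting steps were tested on simulated data. Doublets were not called, and the class rule leaves out nuclei with mixed markers.

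The members, gene lists and tests were chosen with earlier results of these data known. The members named were the 10 with most UMIs, up to 10 called members of largest change per comparison, up to 3 per nucleus class, ranks 149 to 152 and the 2 with the smallest interaction p. The remaining lower members with alcohol, the remaining members called in 3xTg-AD mice alone and the members named within nucleus classes were added after their values were seen. Positions came from GENCODE M21 and promoter windows from RefSeq (GRCm38.p6). One item of the 3xTg-AD genotype is not reported here.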

Additional observations from a re-analysis of the deposited data

Results flagged for a closer look

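In 6 of 136 groups of 4 mice, checked over 34 members, the highest mouse stood apart by Dixon's criterion for 4 samples. Chance flags about 1 in 20 groups. Gm45159 reached 218 CPM in 3xTg-AD mouse 12. Gm19667 reached 57.5 CPM in WT alcohol mouse 7. WT control mouse 28 was highest for Gm2824 (70.4 CPM) and Gm49915 (37.3 CPM). 3xTg-AD alcohol mouse 4 was highest for Gm43376 (23.5 CPM) and Gm45406 (20.9 CPM).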

How the results depend on the processing

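Members called over both exposures or genotypes numbered 9 by genotype and 21 with alcohol. Genes called over the whole table, 550 and 553 of 16767 here, moved as well and are given in brackets for most counts. DESeq2 gave 14 by genotype (7 higher, 7 lower, 947 genes). With alcohol, the ribosomal RNA-associated share as a covariate gave 42 (8 higher, 34 lower, 831 genes). Omission of the 3 mice with most Gm42418 gave 43 (10 higher, 33 lower, 981 of 17271 genes), and DESeq2 31 (5 higher, 26 lower, 1138 genes). Lower alcohol counts came with no filter on low counts, 16 (1 higher, 15 lower, 476 of 19999 genes). Glutamatergic nuclei alone gave 15 (3 higher, 12 lower, 263 of 14583 genes). For 3xTg-AD versus WT control, DESeq2, the covariate and the omission each gave 2 in place of 1 (200, 63 and 45 genes in place of 73). For 3xTg-AD alcohol versus WT alcohol they gave 10, 6 and 9 in place of 3 (421, 242 and 323 genes in place of 158), and for 3xTg-AD alcohol versus 3xTg-AD 24, 37 (6 higher, 31 lower) and 34 (10 higher, 24 lower) in place of 11 (395, 509 and 457 genes in place of 81), while glutamatergic nuclei alone gave 4 (31 of 14583 genes). Within GABAergic nuclei the genotype count was 5 both from 2 marker UMIs and with no filter (85 of 10297 and 153 of 18491 genes), and the alcohol count 5 and 9 (30 and 87 genes). With no filter, astrocytes gave 10 with alcohol (118 genes) and oligodendrocytes 1 by genotype (41 genes), and 2 marker UMIs gave 1 with alcohol in oligodendrocytes (4 genes). Members higher in glutamatergic nuclei numbered 65 of 117 tested from 2 marker UMIs (634 of 8785 genes) and 102 of 150 with no filter (4197 of 19986 genes), and with no filter 67 were higher in GABAergic nuclei (2839 genes) and 7 in oligodendrocytes (1005 genes). The causes were not tested.

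Leaving out 1 mouse gave 8 to 12 members by genotype (351 to 591 genes) and 10 to 23 with alcohol, where genes called ranged from 111 of 16914 without WT alcohol 18 to 686 of 16885 without WT control 36 (10 members without WT alcohol 18 or 3xTg-AD alcohol 33, 12 without 3xTg-AD 13 or 21, 13 without WT alcohol 17 or 3xTg-AD alcohol 34). It gave 0 to 3 for 3xTg-AD versus WT control (35 to 105 genes) and 1 to 5 for 3xTg-AD alcohol versus WT alcohol (49 to 182 genes). The counts were 0 to 24 for 3xTg-AD alcohol versus 3xTg-AD (0 to 244 genes) and 11 to 23 for 3xTg-AD alcohol versus WT control (280 to 867 genes). Within glutamatergic nuclei it gave 7 to 13 members by genotype (225 to 406 genes) and 4 to 22 with alcohol. Genes called with alcohol there ranged from 50 without WT alcohol 18 to 483 without WT control 36. GABAergic nuclei gave 1 to 6 by genotype (35 to 99 genes) and 0 to 6 with alcohol (6 to 42 genes). Astrocyte nuclei gave 1 to 3 by genotype (62 genes or more) and 3 to 8 with alcohol (10 to 130 genes). Oligodendrocyte nuclei gave 0 to 1 by genotype (12 to 23 genes) and 0 to 1 with alcohol (0 to 9 genes). Members higher in a class, with genes called of 6738 to 7324 tested in brackets, ranged from 36 to 47 in glutamatergic (592 to 704) and 23 to 31 in GABAergic nuclei (521 to 604). They ranged from 10 to 11 in astrocyte (445 to 502), 3 to 4 in oligodendrocyte (312 to 354) and 16 to 20 in OPC nuclei (421 to 482). The ranges were 5 to 6 in microglia (373 to 415) and 3 to 4 in vascular nuclei (566 to 636). Of 43 named calls, 23 kept direction and threshold under every alternative run and 0 reversed. No paired analysis was possible because the groups share no replicate numbers.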
